A study of Mus musculus with 11 samples.

Results

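The genes of the phase II conjugating enzymes were examined in mouse colon tissue. They were taken as the protein-coding genes whose GENCODE symbols begin with Ugt1, Ugt2 or Ugt3 (UDP-glucuronosyltransferases, UGT), with Gsta, Gstk, Gstm, Gsto, Gstp, Gstt or Gstz (soluble glutathione S-transferases, GST), with Mgst (the MGST family of membrane-bound enzymes) or with Sult (cytosolic sulfotransferases, SULT). The annotation held 69 such genes, and 46 of them were among the 22836 genes measured: 11 UGT, 24 GST, 3 MGST and 8 SULT genes. The other 23 were not analysed here. A gene was tested where its values averaged 10 normalized counts or more, which left 39 of the 46 (7 UGT, 22 GST, 3 MGST and 7 SULT). The remaining 7 (*Ugt1a5*, *Ugt1a6b*, *Ugt2b1*, *Ugt2b38*, *Gsta5*, *Gstt4* and *Sult1c1*) had at most 10.4 normalized counts in any library.

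Colons of 3 groups were compared by RNA sequencing. Control colons (3 libraries) came from Tfam fl/fl mice without Cre. KO colons (3 libraries, numbered 1, 3 and 4) came from Tfam fl/fl Cd4 Cre mice, in which Cre from the Cd4 promoter removes the mitochondrial transcription factor TFAM from T cells, CD8 cells included, since both lineages pass through a stage with that promoter active. Transferred colons (5 libraries, labelled AT) came from Tfam fl/fl Cd4 Cre mice given CD4 T cells as therapy, taken from young Ly5.1 donors. All 3 groups carry the floxed Tfam allele, and the recipients kept their own TFAM-deficient T cells. The mice of the transfer experiment were mature adults when their gut was examined, though no age is given for the sequenced colons themselves. Plotted points are described as individual biological samples in the methods, but no source used here ties a library to an animal, so that p-values reflect how far libraries of a group lay apart, which may be technical in part.

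The libraries held 18214741 to 19178986 reads in genes, with 1 read worth 0.913 to 1.10 normalized counts. *Tfam* itself had 977 to 1083 normalized counts in control, 1040 to 1102 in KO and 865 to 1090 in transferred colon (KO minus control 0.06 on the log2 scale, SE 0.10, adjusted p = 0.678 from limma), so whole tissue gave no check of the deletion in T cells. Mitochondrially encoded transcripts made up 4.63% to 6.73% of control reads, 2.55% to 3.44% in KO and 3.84% to 4.82% in transferred libraries. All 13 epithelial markers were measured, with summed levels of 340921 to 401917 normalized counts in control colon, as the labelled tissue would hold.

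Phase II enzymes attach a water-soluble group to drugs, dietary compounds, hormones and bilirubin, often after a cytochrome P450 has made a point of attachment. UGTs sit in the endoplasmic reticulum and transfer glucuronic acid from UDP-glucuronate, GSTs add the tripeptide glutathione to electrophiles, and SULTs transfer sulfate from the donor PAPS. In the gut they are enzymes of the epithelium above all, and differentiated surface cells carry much of this activity. The conjugates leave the cell through ABC transporters, and bacteria in the lumen can cleave glucuronides again.

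Several of these genes lie side by side and share sequence, which bounds what a read can tell. The *Ugt1a* genes lie on chromosome 1 of GRCm39, from 88022726 to 88147724, each with its own first exon spliced to the same later exons, and 11.6% of the exon length of *Ugt1a1*, 43.4% of that of *Ugt1a6a* and 22.8% of that of *Ugt1a7c* overlapped no other gene on either strand. For *Ugt1a1* the share was 28.3% among genes of its own strand, and the strand setting of the counting is not known. How the counting treated reads in the shared exons is not given in the sources used here. Over all tested members, 23 of 39 had no stretch of 100 bases in their longest coding transcript that also occurred in a transcript of another gene. In 5 members (*Ugt1a1*, *Ugt1a6a*, *Ugt1a7c*, *Gsta1* and *Gsta13*) over 50% of such stretches did, and for *Gstp1* and *Gstp2* the share was 47.3% and 44.5%. Levels of these genes are uncertain to that extent.

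The promoters of the members were read for 3 short motifs, in RefSeq windows (GRCm38.p6) from 250 bases before to 50 bases after the start of transcription. RefSeq gave 46 windows for 35 of the 39 tested members. The core of the antioxidant response element, the site of NRF2, written TGACNNNGC and searched on both strands, is shown because 1 of the 4 members that held it rose in KO colon and the others fell. That is near the share of all 39 tested members, of which 29 fell and 2 rose. This core stood in 8.7% of the member windows and in 12.4% of all windows. In the 30 bases given 5′ to 3′ on the strand of each gene, capitals mark the core in *Gsta3* (chr1:21240454-21240483, plus strand, first base 121 bases before the start), *Gstm5* (chr3:107895802-107895831, plus, 42), *Gstm7* (chr3:107931724-107931753, minus, 129) and *Mgst1* (chr6:138140461-138140490, plus, 56, on the other strand), also from GRCm38.p6. In *Gstm5* it overlapped an AhR core. For *Gstm7* RefSeq also gave a start farther upstream, and the core shown lies downstream of that start. The window of the upstream start held no match to this core. The AhR core, written GCGTG, stood in 26.1% of the member windows and 32.4% of all windows. The CDX site, written TTTATTA, stood in none of the member windows and in 4.93% of all. None of these shares was tested, and a match in letters is not shown to be a bound site.
Gsta3: aactcaggcaTGACATTGCatttttcttct
Gstm5: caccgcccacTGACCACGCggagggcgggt
Gstm7: tctgaagaccTGACAAAGCgaagccaatcc
Mgst1: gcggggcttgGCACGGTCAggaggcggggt

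Most conjugating enzyme genes were lower in KO than in control colon. Of 39 tested members, 29 fell and 2 rose (limma, adjusted p under 0.05), that is 74.4% and 5.13% of them, where 22.9% of all 16781 tested genes fell and 22.7% rose. The median difference of the members was -0.98 on the log2 scale, against 0.02 for all tested genes. Between KO and control colon, 31 members did not overlap between the groups, and these were the 31 called, where 56.9% of all tested genes did not overlap. Between transferred and KO colon 28 members did not overlap, against 34.2% of all tested genes. In the transferred colons, 27 of the 39 were higher than in KO colon and 1 was lower (69.2% and 2.56%), against 17.0% and 14.2% of all genes, with a median of 0.80 for the members and -0.02 for all. Without KO replicate 3 or 4 the number higher was 20 or 23. Between transferred and control colon limma called none of the 39 in either direction, while it called 1.14% of all genes higher and 0.453% lower. At an unadjusted p under 0.05 there were 9, and edgeR called none and DESeq2 1. The 3 comparisons share libraries and are not independent of each other.

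**Figure D1:**
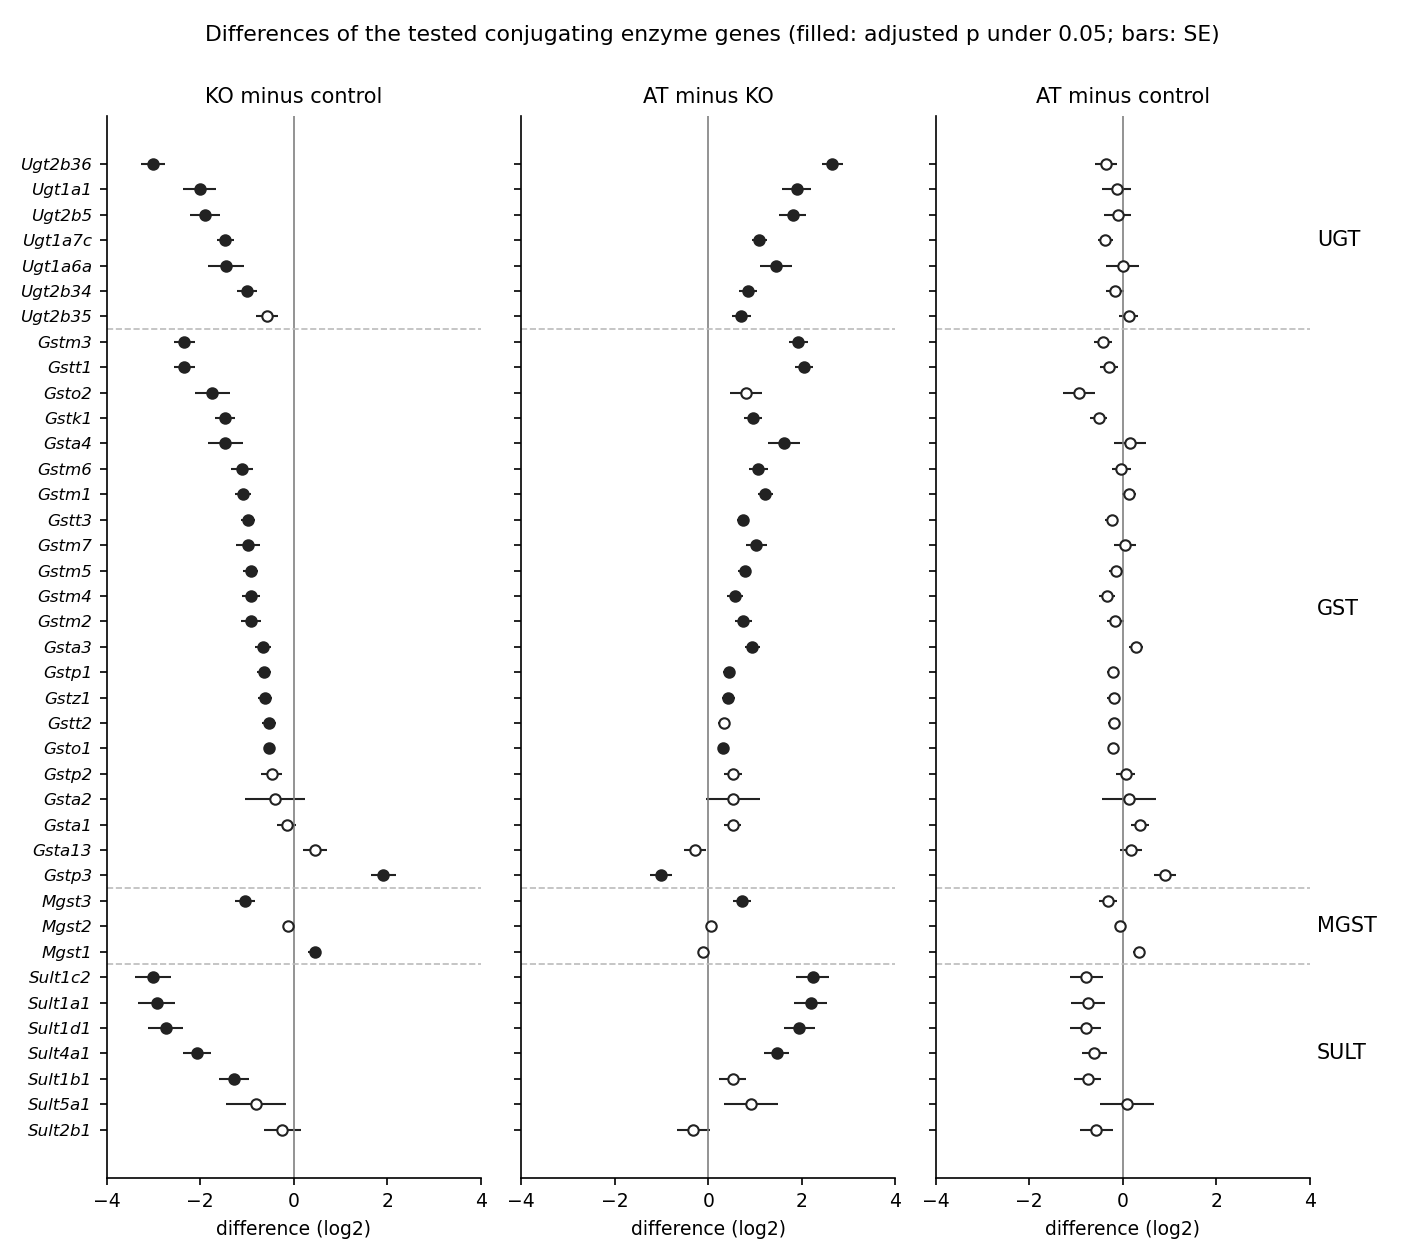
Difference in log2(normalized count + 1) of the 39 tested conjugating enzyme genes between KO and control (left), AT and KO (middle) and AT and control (right) colon, with bars for the SE and filled points for an adjusted p under 0.05, ordered within each family by the first difference. Filled points lie left of 0 for 29 genes in the first panel and right of 0 for 27 in the second, and the third panel holds no filled point.

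Colon tissue was sequenced without separating its cells, so fewer cells of a type and less RNA per cell cannot be told apart in any of these values. The methods describe RNA from a short piece of frozen tissue. Its place along the colon is not given, and the part of that place in the values was not tested. Markers of several other cell types moved as well, and those of others did so less. Epithelial markers as a whole had summed levels of 382857 to 474999 normalized counts in KO and 340417 to 445940 in transferred colon, with 3 of 13 higher and 1 lower in KO than in control (median difference 0.11). Of 11 absorptive colonocyte markers, 7 fell and 2 rose in KO colon, with sums of 466337 to 762517 in control, 102868 to 189551 in KO and 260039 to 808158 in transferred colon. Most of these sums came from *Car1* (mean 387500 in control and 79360 in KO) and *Cyp2c55* (114900 and 7567). *Krt20* and *Tmigd1* were not called (log2 0.24 and -0.51), and *Ceacam20* and *Aqp4* were those that rose. All 10 smooth muscle and all 9 fat cell markers fell (median differences -2.65 and -3.83), as did 9 of 10 markers of enteric nerve and glia, and all 8 neutrophil and all 8 T cell markers rose (median differences 5.25 and 2.29). Of the neutrophil markers *Cxcr2* was at 0 in every control library. All 8 B and plasma cell markers and 6 of 8 macrophage markers rose too. Of 8 crypt and progenitor markers 3 rose and 1 fell, and of 9 fibroblast markers 1 rose and 3 fell. Among 8 endothelial markers 3 fell, among 8 goblet markers 1 rose, and among 5 tested mast cell markers 2 rose. None of 4 tested blood markers was called. With each library scaled to its epithelial marker sum, an alternative chosen after the data were seen, 30 of 39 members fell in KO colon and 1 rose, on a scale that moved the median of all genes by -0.14 (from 0.02 to -0.12) and between transferred and KO colon by 0.11, with the members' median at -1.12 in the former and 0.89 in the latter. Over all genes 2145 rose and 4186 fell on that scale, against 3805 and 3836 as deposited, and between transferred and KO colon 2890 were higher and 995 lower, against 2860 and 2380. The part of the other cell types in the members' differences was not tested.

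Summed over a family and per kilobase of exon, the level of the SULT genes fell furthest. Their sums were 7513, 9592 and 8896 normalized counts per kilobase in control replicates 1 to 3, 2473, 1189 and 1876 in KO replicates 1, 3 and 4, and 4366, 6474, 3682, 4090 and 8165 in AT replicates 1 to 5. No KO library reached a control or transferred library, and of the transferred libraries only replicate 5 lay within the control range. The mean was 21.3% of control in KO and 61.8% in transferred colon for SULT, 42.2% and 88.5% for UGT, 55.0% and 90.9% for GST, and 74.1% and 93.5% for MGST. These sums are a description, with no test.

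**Figure D2:**
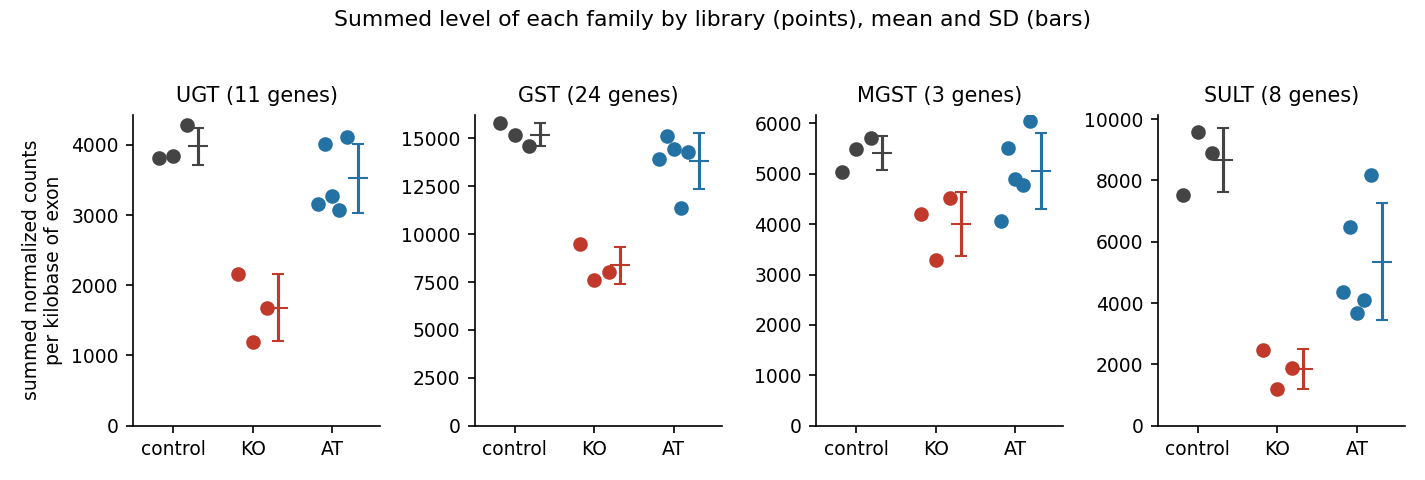
Summed normalized counts per kilobase of exon of each family in every library (points: 3 control, 3 KO, 5 AT), with the mean and SD beside them and axes from 0. KO libraries lie below all control libraries in each family, and for SULT genes 4 of the 5 AT libraries lie below the lowest control library at 7513.

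In the UGT family, 6 of 7 tested genes fell in KO colon, and all 7 were higher in transferred than in KO colon. Per kilobase of all its exons the most abundant in control colon was *Ugt2b34*, with 1994 ± 310 normalized counts per kilobase (SD, n = 3), followed by *Ugt1a7c* with 866 ± 17.3 and *Ugt1a1* with 548 ± 141. With the whole count divided by the exon length that no other gene overlaps on either strand, *Ugt1a1* had 4719 and *Ugt1a7c* 3801. For *Ugt1a7c* that length appears to lie outside its longest coding transcript. With genes of the same strand alone considered, *Ugt1a1* had 1934. Reads were not counted apart over those parts, and such values hold only if no read of a shared exon was counted. The order therefore depends on where reads of shared exons were counted.

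*Ugt2b36* showed the largest difference of the family. It lies on chromosome 5 from 87212668 to 87240422 (GRCm39), within the cluster of *Ugt2b* genes, whose enzymes act on steroids, bile acids and drugs. Control libraries had 120, 103 and 130 normalized counts, KO libraries 16.6, 10.7 and 14.2, and transferred libraries 74.8, 119, 86.5, 69.6 and 117. The KO libraries lay far below all others, and transferred and control libraries overlapped. KO was 8.08-fold lower than control (log2 -3.01, SE 0.26, adjusted p = 1.36e-05 from limma), and transferred colon was 6.29-fold higher than KO (log2 2.65, SE 0.23).

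*Ugt2b5* and *Ugt2b34* lie in the same cluster. Normalized counts of *Ugt2b5* were 874, 809 and 965 in control, 285, 122 and 370 in KO and 777, 925, 834, 613 and 1002 in transferred libraries. Every KO library stood below 613, and the transferred libraries spanned the control range. The log2 difference was -1.90 (SE 0.32, adjusted p = 0.000721 from limma) between KO and control and 1.80 (SE 0.29) between transferred and KO. About 18.2% of the 100-base stretches of *Ugt2b5* occur in another gene, above all in *Ugt2b38* of the same cluster, which had at most 7.72 normalized counts in any library.

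*Ugt2b34*, the gene with the most reads of the family, had 7373, 8487 and 10040 normalized counts in control, 5733, 3146 and 4305 in KO and 6388, 8469, 7086, 6970 and 9846 in transferred libraries. KO replicate 1, at 5733, came nearest to the other groups without reaching them. The difference was -1.01 (SE 0.22, adjusted p = 0.00313 from limma), and 0.84 (SE 0.20) between transferred and KO colon. *Ugt2b35*, of the same cluster, had a difference of -0.58 between KO and control (adjusted p = 0.0591), which passed the threshold with DESeq2 (adjusted p = 0.0459) and without control replicate 2 or KO replicate 1 (0.0341 and 0.0169). It was higher in transferred than in KO colon (0.70, adjusted p = 0.0233; 0.123 without KO replicate 3 and 0.0602 without KO replicate 4).

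*Ugt1a1* encodes the enzyme that conjugates bilirubin. Its libraries had 2278, 1639 and 1392 normalized counts in control, 636, 239 and 514 in KO and 1707, 2269, 1731, 1456 and 1020 in transferred colon. KO libraries stood apart from both other groups, and AT replicate 5, at 1020, was the lowest of the transferred ones. KO was 4.04-fold lower than control (log2 -2.02, SE 0.35, adjusted p = 0.00086 from limma), and transferred minus KO was 1.89 (SE 0.32).

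*Ugt1a7c*, an enzyme for phenols and planar aromatic compounds, had 3628, 3776 and 3714 normalized counts in control, 1658, 1235 and 1180 in KO and 2733, 3337, 2375, 2335 and 3798 in transferred libraries. The control libraries were nearly equal, the KO libraries lay below all others, and AT replicate 5 alone reached the control range. The difference was -1.46 (SE 0.19, adjusted p = 0.00013 from limma), and 1.09 (SE 0.17) between transferred and KO colon. *Ugt1a6a*, of similar substrates, fell by 1.45 on the log2 scale and was 1.44 higher in transferred than in KO colon. All 100-base stretches of the longest coding transcript of *Ugt1a7c* also occur in a transcript assigned to *Ugt1a6a*, so reads of this pair cannot be told apart with certainty. The exons of *Ugt1a7c* cover 4277 bases and its longest coding transcript 3302. The 975 bases that no other gene overlaps appear to lie outside that transcript. If reads of shared exons were left out of the counting, the counts of *Ugt1a7c* would come from those bases.

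Soluble GST genes made up the largest family. Of 22 tested, 17 fell and 1 rose in KO colon, and in transferred colon 15 were higher and 1 lower than in KO colon. All 7 mu class (*Gstm*) genes fell, with log2 differences from -0.91 (*Gstm2*) to -2.35 (*Gstm3*), and all 7 were higher in transferred than in KO colon, by 0.58 (*Gstm4*) to 1.92 (*Gstm3*). Without KO replicate 3, *Gstm2* and *Gstm4* lost the second call (adjusted p = 0.0587 and 0.126). They lie together on chromosome 3, from 107803137 to 107952210 (GRCm39), and 4 of them (*Gstm1*, *Gstm2*, *Gstm3* and *Gstm6*) share some 100-base stretches with other genes, 13.4% at most.

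*Gstm3*, with the largest fall of the class, had 2044, 1978 and 2116 normalized counts in control, 493, 313 and 419 in KO and 1639, 1717, 1342, 1044 and 2080 in transferred libraries. AT replicate 5 was at the control level and the other 4 transferred libraries lay between both groups. KO was 5.08-fold lower than control (log2 -2.35, SE 0.23, adjusted p = 2.58e-05 from limma), and transferred minus control was -0.42 (adjusted p = 0.278). *Gstm1*, the most abundant of the class, had 5855, 5303 and 4922 in control, 3279, 1968 and 2463 in KO and 7234, 5625, 5947, 5092 and 5561 in transferred libraries. Here all transferred libraries were at or above the lowest control library, and KO was 2.13-fold lower than control (log2 -1.09, SE 0.18, adjusted p = 0.00053 from limma).

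Theta class genes (*Gstt*) fell as well, 3 of 3 tested. *Gstt1*, known for its activity on small halogenated compounds, had 884, 911 and 772 normalized counts in control, 236, 137 and 147 in KO and 719, 817, 827, 497 and 669 in transferred libraries. The KO libraries lay apart and AT replicate 4 was the lowest of the transferred ones. It fell by 2.34 on the log2 scale (SE 0.22, adjusted p = 2.43e-05 from limma) and was 4.12-fold higher in transferred than in KO colon. *Gstt3*, its neighbour on chromosome 10, had 1468, 1494 and 1545 in control, 914, 675 and 712 in KO and 1073, 1450, 1290, 1098 and 1509 in transferred libraries (KO minus control -0.98, SE 0.15, adjusted p = 0.000398). For *Gstt3*, 23.6% of the 100-base stretches occur in another gene. *Gstt2* differed less, at -0.52 (adjusted p = 0.0145; 0.0613 without control replicate 3).

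*Gstk1*, the kappa class gene of mitochondria and peroxisomes, had 2211, 2321 and 1993 normalized counts in control, 845, 758 and 749 in KO and 1271, 2020, 1661, 1014 and 1849 in transferred libraries. Only AT replicate 2 reached the control range, while all transferred libraries exceeded those of KO. The difference was -1.47 (SE 0.21, adjusted p = 0.000282 from limma) between KO and control and 0.95 (SE 0.19) between transferred and KO colon. Of the alpha class, *Gsta4*, which detoxifies the lipid peroxidation product hydroxynonenal, fell by 1.47 (adjusted p = 0.0077) and *Gsta3* by 0.66 (adjusted p = 0.00901). *Gsta1*, *Gsta2* and *Gsta13*, which share sequence with each other, were not called in any comparison. Of the omega class, *Gsto2* was near the limit of the test, with 13.2 to 20.9 normalized counts in control and 3.28 to 6.85 in KO libraries, and *Gsto1* fell by 0.52 (adjusted p = 0.0033). The zeta class gene *Gstz1*, an enzyme of tyrosine breakdown, fell by 0.62 (adjusted p = 0.00637).

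The pi class genes, neighbours on chromosome 19 from 4085405 to 4109569 (GRCm39), went in opposite directions. *Gstp1* had the highest level of all GST genes per kilobase in control colon, with 3957 ± 278 normalized counts per kilobase (SD, n = 3). Its normalized counts were 6724, 6726 and 5938 in control, 4599, 4092 and 3779 in KO and 5491, 6350, 6489, 4340 and 5587 in transferred libraries. AT replicate 4 fell within the KO range and the other transferred libraries did not. The difference was -0.64 between KO and control (SE 0.15, adjusted p = 0.00414 from limma) and 0.43 between transferred and KO colon (adjusted p = 0.0261), a call lost without KO replicate 3 or 4 or AT replicate 2 or 3 (adjusted p up to 0.112). *Gstp2* differed by -0.47 between KO and control (adjusted p = 0.109; 0.0479 without control replicate 2 and 0.0466 without AT replicate 5).

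*Gstp3* was the exception of the family. Control libraries had 47.1, 56.7 and 64.0 normalized counts, KO libraries 173, 205 and 268, and transferred libraries 83.1, 80.5, 102, 112 and 163. None of the 3 groups overlapped another, and the transferred libraries lay between both others. *Gstp3* was 3.77-fold higher in KO than in control colon (log2 1.92, SE 0.27, adjusted p = 0.000214 from limma) and 2.02-fold lower in transferred than in KO colon (log2 -1.01, SE 0.24, adjusted p = 0.00832). Transferred minus control was 0.90 (adjusted p = 0.0777; with DESeq2 0.0134, and from 0.0134 to 0.291 over all alternatives). No 100-base stretch of its transcript occurs in another gene. For every 100 normalized counts of *Gstp1* there were 0.70 to 1.08 of *Gstp3* in control, 3.77 to 7.10 in KO and 1.27 to 2.92 in transferred libraries.

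**Figure D3:**
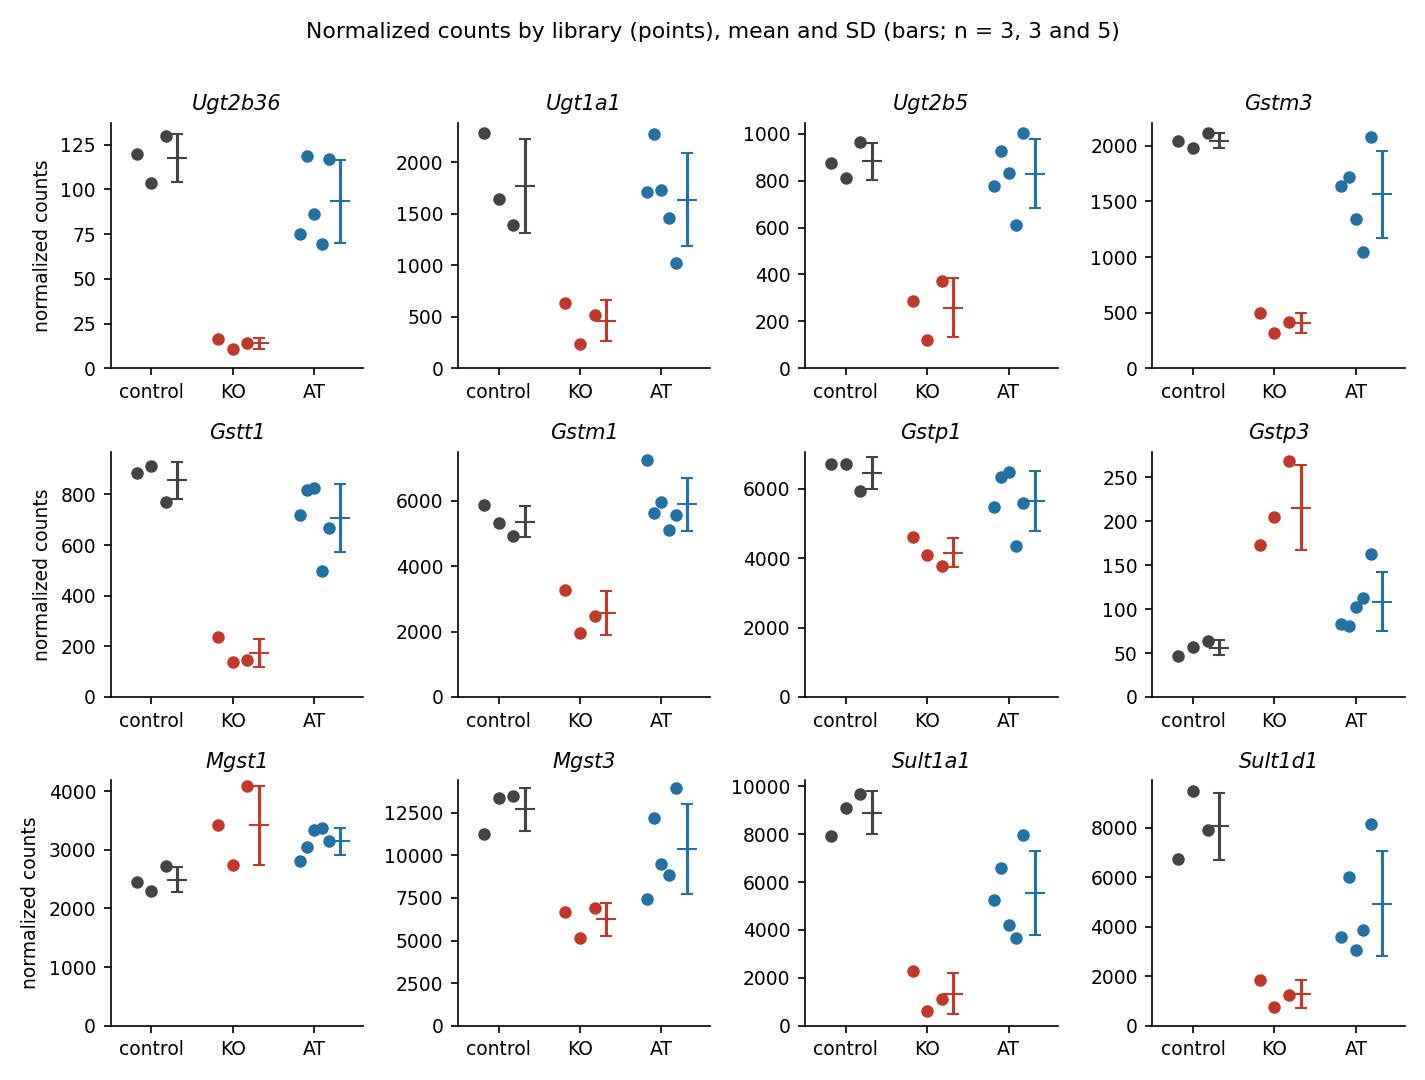
Normalized counts of 12 conjugating enzyme genes in each library (points: 3 control, 3 KO, 5 AT), with the mean and SD beside them and axes from 0. For 10 of the genes every KO library lies below every control library, and for *Gstp3* and *Mgst1* above.

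The 3 genes of membrane-bound MGST enzymes each behaved differently in KO colon. *Mgst3*, which reduces lipid hydroperoxides, was the most abundant per kilobase in control colon (3550 ± 354, SD, n = 3). Its libraries had 11250, 13370 and 13500 normalized counts in control, 6692, 5130 and 6888 in KO and 7461, 12210, 9515, 8845 and 13960 in transferred colon. All transferred libraries exceeded the KO libraries, 3 of them without reaching the control range. *Mgst3* fell by 1.03 (SE 0.21, adjusted p = 0.00237 from limma) and was 0.71 higher in transferred than in KO colon (SE 0.19, adjusted p = 0.0157; 0.0852 without KO replicate 3).

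*Mgst1*, which conjugates and reduces reactive lipids in the endoplasmic reticulum and outer mitochondrial membrane, had 2458, 2294 and 2718 normalized counts in control, 3430, 2742 and 4091 in KO and 2817, 3048, 3332, 3373 and 3144 in transferred libraries. Both KO and transferred libraries lay above all control libraries, KO replicate 3 narrowly so. *Mgst1* rose by 0.44 in KO colon (SE 0.14, adjusted p = 0.0202 from limma). The call was lost without control replicate 2 or KO replicate 4 (adjusted p = 0.0764 and 0.0855) and on the scale of epithelial markers (adjusted p = 0.106), and without control replicate 1 the adjusted p was 0.05. *Mgst2*, which also makes leukotriene C4, was not called, with 2770, 2493 and 2395 normalized counts in control, 2597, 2069 and 2369 in KO and 2392, 2405, 2420, 2615 and 2381 in transferred libraries. The 3 groups overlapped, and KO minus control was -0.13 (SE 0.10, adjusted p = 0.323 from limma).

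In the SULT family, 5 of 7 tested genes fell in KO colon, and 4 were higher in transferred than in KO colon. *Sult1d1*, *Sult1a1* and *Sult1b1* were the most abundant per kilobase in control colon, with 3216 ± 546, 2972 ± 296 and 1550 ± 304 normalized counts per kilobase (SD, n = 3). The levels of *Sult1d1* and *Sult1a1* differ by less than the spread of their libraries. With its whole count divided by the exon length that no other gene overlaps on either strand, *Sult1a1* had 3511.

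*Sult1c2* had 1874, 1769 and 1415 normalized counts in control, 437, 134 and 151 in KO and 1114, 1418, 727, 708 and 1084 in transferred libraries. The transferred libraries lay between both groups, and AT replicate 2 alone reached the lowest control library. *Sult1c2* was 8.06-fold lower in KO than in control colon (log2 -3.01, SE 0.39, adjusted p = 0.000149 from limma), and transferred minus KO was 2.23 (SE 0.35, adjusted p = 0.00105).

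*Sult1a1*, the phenol sulfotransferase, lies on chromosome 7 from 126271299 to 126275615 (GRCm39). It had 7945, 9081 and 9692 normalized counts in control, 2272, 613 and 1131 in KO and 5236, 6595, 4195, 3663 and 7954 in transferred libraries. KO replicate 1 was the highest of its group and still below every transferred library. It was 7.62-fold lower in KO colon (log2 -2.93, SE 0.40, adjusted p = 0.000189 from limma), and transferred minus KO was 2.19 (SE 0.36, adjusted p = 0.00125).

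*Sult1d1*, which acts on phenols and catecholamines, lies on chromosome 5 beside *Sult1b1*. Its normalized counts were 6757, 9487 and 7933 in control, 1851, 754 and 1233 in KO and 3584, 5995, 3045, 3873 and 8160 in transferred libraries. The spread among transferred libraries was wide, with replicate 5 inside the control range and the other 4 below it. KO was 6.66-fold lower than control (log2 -2.73, SE 0.37, adjusted p = 0.000193 from limma), and transferred minus KO was 1.94 (SE 0.33). *Sult1b1*, which sulfates thyroid hormones and small phenols, had 3537, 5266 and 4691 in control, 1934, 1457 and 2208 in KO and 1762, 3291, 1822, 2649 and 4520 in transferred libraries. It fell by 1.27 (SE 0.32, adjusted p = 0.00714) in KO colon, whereas transferred and KO libraries overlapped (0.52, SE 0.29, adjusted p = 0.189).

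*Sult4a1*, whose product is known from neurons and has little known sulfotransferase activity, had 190, 223 and 137 normalized counts in control, 60.7, 44.6 and 27.4 in KO and 112, 142, 130, 81.0 and 133 in transferred libraries. KO libraries lay below all others, and only AT replicate 2 reached the control range. The difference was -2.07 (SE 0.30, adjusted p = 0.000285 from limma), and 1.46 (SE 0.27) between transferred and KO colon. The 10 markers of enteric nerve and glia had summed levels of 1811 to 3142 in control, 448 to 876 in KO and 1104 to 2185 in transferred libraries, and their part in the values of *Sult4a1* was not tested. *Sult2b1*, a cholesterol sulfotransferase, and *Sult5a1* were not called in any comparison.

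Between transferred and control colon, the 9 members with an unadjusted p under 0.05 were 2 higher and 7 lower, and 19.0% of all tested genes passed that limit. The member that DESeq2 called was *Gstp3*. In 3 members, *Gsto2*, *Gstp3* and *Mgst1*, the transferred libraries did not overlap those of control, against 11.6% of all tested genes. The median difference of the members was -0.16, and of the 7 SULT genes -0.74. In the same comparison the median was -0.88 for 10 smooth muscle markers (6 lower), -0.70 for 10 markers of enteric nerve and glia (none called), -0.56 for 11 absorptive colonocyte markers (1 higher) and 1.57 for 8 T cell markers (4 higher), and their part in the members' values was not tested. The differences of *Sult1d1*, *Sult1c2*, *Sult1b1*, *Sult1a1* and *Sult4a1* were -0.79, -0.78, -0.75, -0.74 and -0.61, with adjusted p from 0.187 to 0.282 (limma). At an unadjusted p under 0.05 with a log2 difference over 0.6, 5 members were lower and 1 higher.

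The libraries of a group kept some order across members. Among the 29 genes that fell, KO replicate 3 was the lowest of its group for 21 and KO replicate 1 the highest for 23. Of the transferred libraries, AT replicate 5 was the highest for 16 and AT replicate 4 the lowest for 17. Over all tested genes, AT replicate 5 differed most from AT replicates 1, 3 and 4, with a chi-square of recovered reads per gene of 111, 89.4 and 92.8. Against AT replicate 2 it was 40.5, and pairs of transferred libraries without replicate 5 had 21.9 to 50.4. The title and description of AT replicate 5 give different sample numbers.

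Genes that supply the donors were examined beside the enzymes, from lists drawn up from general knowledge. Counts of these and the further lists below are to be read against all tested genes. Of those, 22.7% rose and 22.9% fell in KO colon. For glucuronidation, 4 of 8 genes fell and 2 rose in KO colon. *Ugdh*, which makes UDP-glucuronate, had 16200 ± 816 normalized counts in control, 4114 ± 1504 in KO (SD, n = 3 each) and 11110 ± 2588 in transferred colon (SD, n = 5), a difference of -2.04 (SE 0.26, adjusted p = 0.000123 from limma). *Slc35d1*, which carries the donor into the endoplasmic reticulum, fell by 1.61 and *Pgm1*, of glucose phosphate metabolism, by 0.67. *Slc35a3*, a transporter for UDP-N-acetylglucosamine, and *Slc35b1*, for adenine nucleotides, rose by 0.71 and 0.51.

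For sulfation, 4 of 10 genes fell and 3 rose. *Papss1*, a synthase of PAPS, fell by 1.02 (adjusted p = 0.000164 from limma). Its paralog *Papss2*, named after its values were seen, had 26530 ± 10090 normalized counts in control, 5614 ± 1461 in KO (SD, n = 3 each) and 15310 ± 11660 in transferred colon (SD, n = 5). It was 4.59-fold lower in KO colon (adjusted p = 0.00464 from limma) and its difference between transferred and KO colon was not called (log2 1.22, adjusted p = 0.0621). The anion exchangers *Slc26a3* and *Slc26a1* fell (log2 -3.78 and -5.63), the first also being one of the absorptive colonocyte markers. *Bpnt2*, *Slc35b2* and *Slc35b3*, a phosphatase and transporters of PAPS in the Golgi, rose by 0.54, 0.41 and 0.29.

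Genes of glutathione supply went both ways, 7 of 19 higher and 5 lower in KO colon. *Slc7a11*, which imports cystine, had 21.0 ± 8.67 normalized counts in control, 258 ± 84.4 in KO (SD, n = 3 each) and 45.6 ± 14.2 in transferred colon (SD, n = 5), a rise of 3.59 (SE 0.35, adjusted p = 2.88e-05 from limma). The aminopeptidase gene *Lap3* rose by 1.69 and *Gsr*, which regenerates glutathione, by 0.70. *Gclc* and *Gclm*, the subunits of the enzyme that starts glutathione synthesis, fell by 1.15 and 0.95, and *Ggt7* by 1.48.

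**Figure D4:**
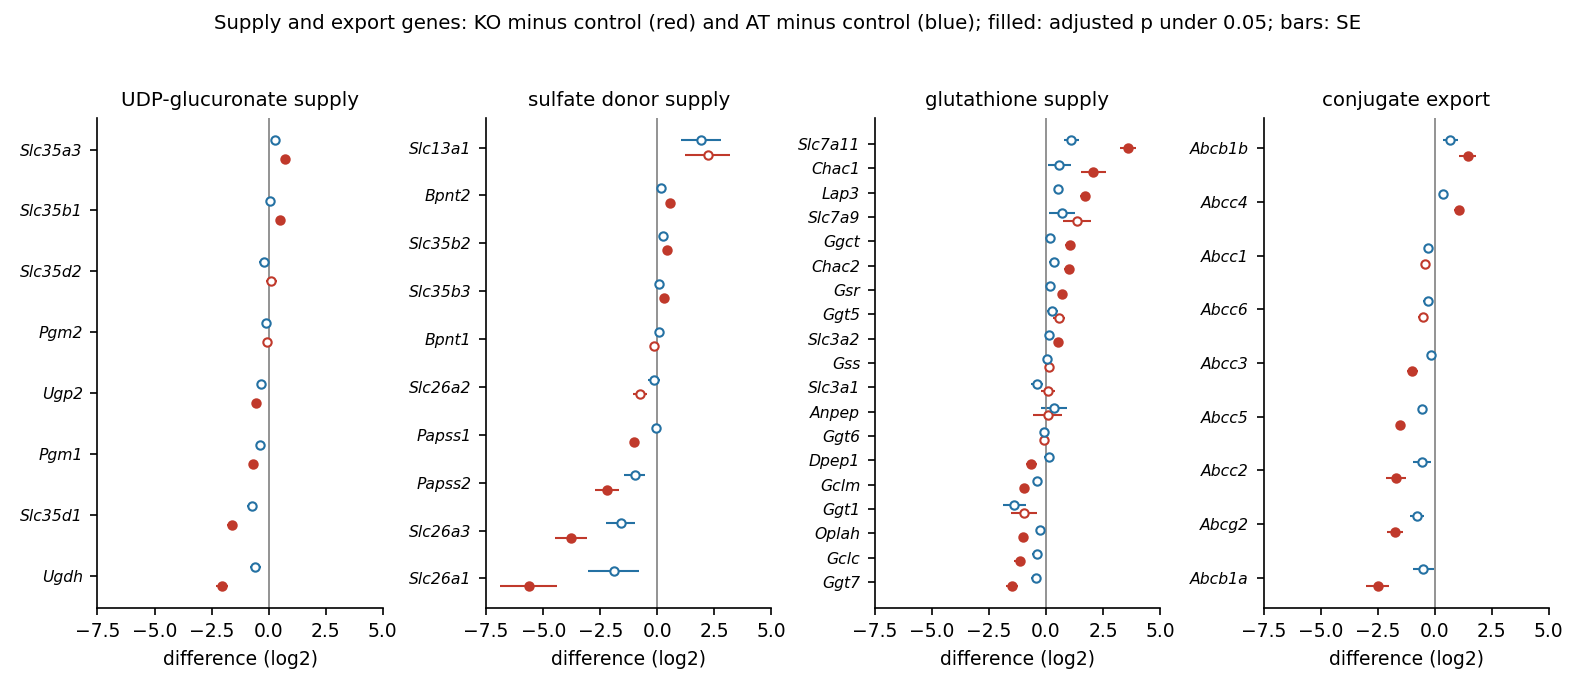
Difference in log2(normalized count + 1) against control for tested genes of donor supply and conjugate export in KO (red) and AT (blue) colon, with bars for the SE and filled points for an adjusted p under 0.05. *Ugdh* (-2.04) and *Slc26a1* (-5.63) lie at the low end of their lists in KO colon and *Slc7a11* (3.59) at the high end, and the blue points of these genes lie nearer to 0.

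Of 9 genes of conjugate export, 5 fell and 2 rose in KO colon. *Abcc5*, *Abcg2* and *Abcb1a*, ABC transporters for conjugates and drugs, fell (log2 -1.51, -1.75 and -2.50), and *Abcc4* and *Abcb1b* rose by 1.08 and 1.45. Among 13 genes that cleave or process conjugates, 5 fell, led by *Kyat3*, *Kyat1* and *Acy3* (-1.30, -0.86 and -0.74). The one that rose was *Gusb*, the lysosomal beta-glucuronidase, with 624 ± 31.7 normalized counts in control, 1838 ± 182 in KO (SD, n = 3 each) and 899 ± 178 in transferred colon (SD, n = 5; KO minus control 1.55, adjusted p = 4.24e-05 from limma). Of 12 other phase II genes, 7 fell and 1, *Pemt*, rose (1.19). The methyltransferase genes *Tmt1a* and *Tmt1b* fell by 3.12 and 1.76, and *Inmt* had 39.3 ± 15.1 in control and 1.01 ± 0.07 in KO colon (SD, n = 3 each), about 1 read per library.

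Regulators of these families were examined as well. Of 26 listed genes, nuclear receptors and transcription factors among them, 4 rose and 3 fell in KO colon. Both are smaller shares than the 22.7% and 22.9% of all tested genes that rose and fell. *Tiparp*, *Bach1* (a repressor of NRF2 targets) and *Nr1h4* (the bile acid receptor FXR) rose by 0.85, 1.02 and 0.81, and *Nr1i3* (CAR), *Rxra* and *Pparg* fell by 2.75, 0.54 and 0.56. *Nfe2l2* (NRF2) and *Ahr*, named after their values were seen, differed by -0.33 and 0.04 (adjusted p = 0.0975 and 0.84 from limma). *Nr1h4* was the only gene of these lists called between transferred and control colon (0.82, adjusted p = 0.0483).

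Targets of NRF2 outside the conjugating enzymes went both ways, 7 of 25 higher and 11 lower in KO colon. *Slc7a11*, *Txnrd1* and *Txn1* rose by 3.59, 0.90 and 0.78, and *Cat*, *Cbr1* and *Ephx1* fell by 1.17, 1.22 and 1.65. Of 5 AhR targets, *Tiparp* (the same gene as among the regulators above), *Lpcat2* and *Cyp1b1* rose by 0.85, 1.45 and 2.24. *Nqo1*, on both lists of targets, fell by 0.88.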

How the data were processed

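RNA of colon tissue was sequenced as stranded mRNA libraries. Per the labels and methods, reads were aligned to GRCm39 by the authors using HISAT2 (2.2.1; STAR is named too), sorted in SAMtools (1.13) and assigned to genes by HTSeq (1.99.2), with DESeq2 listed (1.40.2 in the processing notes, another version in the methods). The deposited signal values of the 11 libraries are read counts per gene, each divided by 1 factor per library. All were whole multiples of 1 step (tolerance 0.05), so reads could be recovered. Annotation release, strand setting and counting mode are not stated there, which leaves overlapping genes uncertain, and changes in tissue makeup remain in the values.

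Values were taken as log2(normalized count + 1) and tested with limma (3.58.1, under R 4.3.3), a scale that understates changes of low genes. The fit held the 3 groups and a mean-variance trend over 16781 genes averaging 10 or more, and p was adjusted over all of them (Benjamini-Hochberg, threshold 0.05). In simulated data of 16781 genes, it called 63% (KO against control), 67% (AT against KO) and 72% (AT against control) of 2-fold changes, and 94%, 97% and 95% of 4-fold changes. Each fold was given to 100 genes averaging 50 or more. In the real data 7641 genes were called between KO and control and 5240 between AT and KO. The simulated shares need not hold with so many changes, nor for lower genes. Places and exon lengths came from GENCODE (GRCm39), promoter windows from RefSeq (GRCm38.p6). Levels per kilobase use all exons.

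Members and lists were chosen with earlier results of these data known. Full values are given for up to 5 called members per family and direction by smallest adjusted p in KO against control, for the most abundant per kilobase of each family, and for uncalled members over 1000 normalized counts, and short ones for up to 3 called genes per direction of each role list. The alternatives were pseudocounts 0.5 and 10, filters at 0 and 50, quantile and TMM scaling, recovered reads in edgeR (4.0.16) and DESeq2 (1.42.0), a fit of the compared groups alone, no trend, a replicate block, the threshold of the methods (p under 0.05, log2 difference over 0.6), own exon length over both strands, each library left out and, chosen after the data were seen, scaling to 13 epithelial markers and own exon length over the same strand.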

Additional observations from a re-analysis of the deposited data

Results flagged for a closer look

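In the 5 transferred libraries, 1 library stood apart from the rest in 4 of 39 tested members, its gap to the nearest being over 0.71 of the range, and chance gives such a gap in about 1 group in 20. *Gstz1* had 950 normalized counts in AT replicate 1 and 625 to 641 in the others. *Sult2b1* had 762 in AT replicate 5 and 277 to 400 in the others. *Gsta1* had 455 in AT replicate 2 and 303 to 345 in the others, and *Mgst2* had 2615 in AT replicate 4 and 2381 to 2420 in the others. The libraries that stood apart differed from gene to gene, and groups of 3 were not tested in this way.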

How the results depend on the processing

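The falls in KO colon depended little on the processing: 27 to 30 members were lower under all alternatives, and no called member changed direction. Of the 31 members called in KO against control colon, 28 stayed called under every alternative that tested them. A mean of at least 50 left out the low genes. *Gsto2*, near the filter of 10, was tested under 19 alternatives where most members had 24, and never with a control library left out. *Mgst1* lost its call under several, *Gstt2* and *Gsto1* at the threshold of the methods and *Gstt2* also without control replicate 3. The number of members higher in KO colon was therefore 1 with the replicate block, at the threshold of the methods and on the scale of epithelial markers (chosen after the data were seen), and 1 to 2 with single libraries left out. Of the 28 members called between transferred and KO colon, 21 stayed called, and the number higher was 20 to 28 over all alternatives, 20 being the value without KO replicate 3. Between transferred and control colon, DESeq2 called 1 member higher, the threshold of the methods 1 higher and 5 lower, and the replicate block 1 lower (*Sult1b1*). With single libraries left out, 0 to 1 were higher (*Gstp3* without AT replicate 2, adjusted p = 0.0461) and 0 to 1 lower (*Sult1b1* without AT replicate 5, adjusted p = 0.0438). The cause of these changes was not tested.

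Among members that were not called, differences near 0 changed sign. With single libraries left out, KO minus control ranged from -0.40 to 0.0016 for *Gsta1*, -1.01 to 0.0236 for *Gsta2* and -0.58 to 0.11 for *Sult2b1*, and transferred minus KO from -0.26 to 0.0323 for *Mgst1* and -0.0228 to 0.14 for *Mgst2*. *Gsta1* was also 0.0033 with the replicate block in KO minus control, and *Mgst1* 0.0021 on the scale of epithelial markers in transferred minus KO.

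The replicate numbers are not stated to mark a shared litter, batch or day. Deviations from the group means of same-numbered libraries correlated at 0.054 and 0.057 between KO and control. They correlated between -0.033 and 0.105 for transferred and KO libraries, and at 0.386, 0.269 and -0.102 for transferred and control. The main fit did not pair libraries by number, and whether the numbers pair transferred with control libraries was not tested. Of the 6 libraries with a shared number, 2 correlated best with their own number between transferred and KO and 5 between transferred and control. With the replicate block 29 members were lower in KO colon and 25 higher in transferred than in KO colon. Over all genes, the 192 higher and 76 lower in transferred than in control colon became 774 and 462 with DESeq2, 617 and 313 with the block, 950 and 713 at the threshold of the methods and 18 and 5 in a fit of those 2 groups alone. Leaving out 1 library at a time gave 11 to 544 higher and 0 to 292 lower. Depth limits the low genes: *Gsto2*, *Gsta2* and *Sult5a1* had 2 to 23 reads in any library.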
